A study of Mus musculus with 21 samples.

Results

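Glucocorticoid-induced genes are genes whose transcription rises when the stress hormone corticosterone binds its receptors. Here 10 of them were followed in the hippocampus of adult male mice: Tsc22d3, Sgk1, Zbtb16, Klf9, Ddit4, Sult1a1, Cdkn1a, Mt1, Mt2 and Errfi1. They are a list of known target genes, found by name in the table of gene counts. All 10 were found among its 55487 genes, and all 10 were among the 18146 genes with enough counts to test. Poly-A RNA was sequenced with 1 library per mouse, for 9 mice that had gone through maternal separation (MS) and 12 mice with standard rearing (SR). All mice were male wild type C57BL/6 mice of 10 weeks of age. MS litters were taken from the dam as whole nests for 4 h per day between postnatal days 10 and 17, and part of the nesting material was removed from their home cages. Hippocampi were taken after decapitation, and the labels give no hormone measurement for any mouse.

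In the brain, corticosterone acts through the glucocorticoid receptor, Nr3c1, and the mineralocorticoid receptor, Nr3c2, both abundant in the hippocampus. The activated receptors bind DNA at glucocorticoid response elements, which are palindromes of a pair of arms, and raise the transcription of nearby genes in neurons and glia. Among the members, Tsc22d3 encodes GILZ, an anti-inflammatory leucine zipper protein. Zbtb16 and Klf9 encode zinc finger transcription factors. Sgk1 encodes a kinase that regulates ion channels and transporters. Ddit4 encodes REDD1, an inhibitor of mTORC1, and Errfi1 encodes MIG6, an inhibitor of the EGF receptor. Cdkn1a encodes the cyclin-dependent kinase inhibitor p21. Sult1a1 encodes a sulfotransferase, and Mt1 and Mt2 encode metallothioneins, small proteins that bind zinc and copper. Many of these genes also respond to other signals, such as metals for Mt1 and Mt2 or p53 for Cdkn1a.

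To see whether the start sites of these genes hold the sequence that the receptors bind, RefSeq promoters (GRCm38.p6, 250 bases before to 50 bases after a start site) were searched on both strands. An entry was found for 9 of the 10 members, with 18 promoters, and Zbtb16 had none. The full response element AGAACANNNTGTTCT was in 3 of 32851 promoters (0.00913%), and a promoter of Sgk1 was among them. With at most 2 mismatches in its 12 fixed bases, it was in 1.84% of promoters. Among them were the Sult1a1 promoter and another promoter of Sgk1 (chr10:21985854-21986153, not shown), each with 2 mismatches. A single arm, AGAACA, was in 19.0% of promoters. The core of the metal response element was searched as TGCACNC and TGCGCNC. At least 1 core was in 25.7% of promoters and at least 3 were in 1.97%, among them those of Mt1 (3 cores) and Mt2 (4 cores). These 4 promoters are shown because they hold the full or nearest response element and at least 3 metal cores, and because Mt1 and Mt2 are the pair of members that varied together most closely. Single arms were also in a Tsc22d3 promoter and in other promoters of Sgk1, and single metal cores in a promoter of Ddit4 and another of Sgk1. Capitals mark the response element and single arms in Sgk1 and Sult1a1, and the metal cores in Mt1 and Mt2.
Sgk1, chr10:21993640-21993939, + strand: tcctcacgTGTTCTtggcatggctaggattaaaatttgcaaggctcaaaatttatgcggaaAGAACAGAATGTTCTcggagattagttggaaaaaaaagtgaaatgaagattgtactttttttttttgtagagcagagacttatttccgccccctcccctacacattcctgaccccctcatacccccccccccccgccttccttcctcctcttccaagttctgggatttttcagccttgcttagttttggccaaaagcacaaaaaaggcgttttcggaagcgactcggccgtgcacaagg
Sult1a1, chr7:126676369-126676668, - strand: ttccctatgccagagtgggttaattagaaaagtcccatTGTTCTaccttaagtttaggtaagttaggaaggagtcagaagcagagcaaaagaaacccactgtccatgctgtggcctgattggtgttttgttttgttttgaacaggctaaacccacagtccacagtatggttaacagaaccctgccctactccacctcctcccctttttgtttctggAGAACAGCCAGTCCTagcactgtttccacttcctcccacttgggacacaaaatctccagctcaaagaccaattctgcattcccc
Mt1, chr8:94178839-94179138, + strand: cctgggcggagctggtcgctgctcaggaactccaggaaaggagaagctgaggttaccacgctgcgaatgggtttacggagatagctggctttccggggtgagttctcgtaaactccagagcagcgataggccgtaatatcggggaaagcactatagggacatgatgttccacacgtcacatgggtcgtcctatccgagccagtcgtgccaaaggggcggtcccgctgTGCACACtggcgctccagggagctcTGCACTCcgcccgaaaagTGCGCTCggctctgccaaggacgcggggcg
Mt2, chr8:94172368-94172667, + strand: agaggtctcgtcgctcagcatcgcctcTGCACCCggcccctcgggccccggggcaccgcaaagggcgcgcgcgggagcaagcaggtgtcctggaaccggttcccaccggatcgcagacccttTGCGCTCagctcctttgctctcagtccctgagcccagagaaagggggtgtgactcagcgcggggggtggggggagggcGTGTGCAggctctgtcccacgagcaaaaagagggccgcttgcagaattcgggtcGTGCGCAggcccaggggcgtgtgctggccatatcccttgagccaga
The Sgk1 element read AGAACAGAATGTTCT and began at position -189 relative to the start site (chr10:21993701-21993715). An E-box (CACGTG, in 7.15% of promoters) at -246 overlapped a single arm at -242. The Sult1a1 element read AGAACAGCCAGTCCT and began at -34. In Mt1 the metal cores began at -23, 2 and 20, and in Mt2 at -223, -128, -50 and 4. The Mt1 and Mt2 promoters were identical at 49.4% of the aligned positions. Both genes lie on the same strand of chromosome 8, with 5513 bases between the end of Mt2 and the start of Mt1. A match to these letters describes the sequence and does not show that a factor binds there.

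Before the members were compared, the libraries were checked. Totals ranged from 17276810 to 30449055 counts. The MS library A2 stood off from all others, with a score of 27.1 on the first principal component, where the others lay between -12.2 and 11.9. For this library, CPM (counts of a gene scaled to a common normalised library total) were 0.696 for Dsp, 20.6 for Prox1, 1.86 for C1ql2 and 1.46 for Lct. These are markers of dentate granule cells that were at 34.2 CPM or more in the other libraries. Tdo2, of the same marker list, was also low, at 1.19 CPM against 2.41 or more. Sema5b, of that list too, went the other way, at 40.8 CPM against at most 29.4 in the other libraries. It had 420.2 CPM of Penk, a striatal gene, where the other libraries had at most 135 CPM. The values that follow leave it out and cover 8 MS and 12 SR mice, unless all 21 libraries are named. Each mouse carries the letter of its set, a run of 3 animal numbers in a row (sets A, B and C are MS and sets D, E, F and G are SR), and a digit. The labels name no nest or cage, and males were housed in groups of 3 littermates, so mice of a set may share a litter, and p-values over mice do not account for this unless a set-wise value is given. Animal numbers fell in a first range (sets A, B, D, E and F, 14 mice used) and a second range (sets C and G, 6 mice), and the labels do not say what the ranges stand for.

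The abundance of the members differed widely. Per kilobase of exon, Klf9 was at 49.4 ± 4.23 CPM in MS and 49.4 ± 3.91 CPM in SR, and Mt1 at 53.9 ± 11.2 and 44.6 ± 5.53 CPM (mean ± SD, n = 8 MS and 12 SR here and in what follows). Ddit4 followed at 24.7 ± 2.46 and 22.2 ± 4.27 CPM per kilobase. Zbtb16 (17.9 and 19.1), Sgk1 (17.2 and 15.7) and Tsc22d3 (15.6 and 14.9) followed. Sgk1 lay within its SD of both others, while the SR means of Zbtb16 (SD 2.01) and Tsc22d3 (SD 2.15) were further apart than either SD. Errfi1 was at 10.9 and 10.5, Mt2 at 6.13 and 5.83, and Sult1a1 at 5.74 and 5.20 CPM per kilobase, the last pair again within their SDs. Cdkn1a had the lowest level, 1.99 ± 0.818 and 1.71 ± 0.546 CPM per kilobase. Over all 21 libraries, Mt2 rested on the fewest reads, 37 to 123 counts per library, and Klf9 on the most, 3597 to 8173. Counts of Mt2 may include reads of an antisense gene that covers 432 of its exon bases, as the strand setting of the counting was not stated. An antisense transcript covers 273 exon bases of Cdkn1a, and Sgf29 covers 61 of Sult1a1 on the other strand. Of the 75-base stretches of its transcripts, Sult1a1 shared 3.37% with another gene and Cdkn1a 1.41%, so both are slightly uncertain.

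To assess whether MS left a lasting change in these genes, MS mice were compared with SR mice by edgeR's quasi-likelihood test over all 18146 genes. None of the 10 members changed at an adjusted p under 0.05, where 0.011% of all genes did, and no member had MS and SR groups that did not overlap, as 0.011% of all genes had. At an unadjusted p under 0.05, 1 of 10 passed, against 11.5% of all genes. It was higher in MS, where 6.62% of all genes were higher and 4.92% lower at that p. With the range of animal numbers, described above, as a term, 3 of 10 passed at an unadjusted p under 0.05, against 12.5% of all genes: Mt1 (0.31, edgeR adjusted p = 0.11), Tsc22d3 (0.11, edgeR adjusted p = 0.40) and Ddit4 (0.19, edgeR adjusted p = 0.40), all higher in MS and none past the adjusted threshold. In bulk tissue, fewer cells of a type and less RNA per cell cannot be told apart. DESeq2, which called 0.966% of the genes it gave an adjusted p, called 0 of 10 as well. Of the members, 9 had a log2 fold change above 0, where 50.3% of all genes did. Their median was 0.10, and that of all genes was 0.00084.

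**Figure D1:**
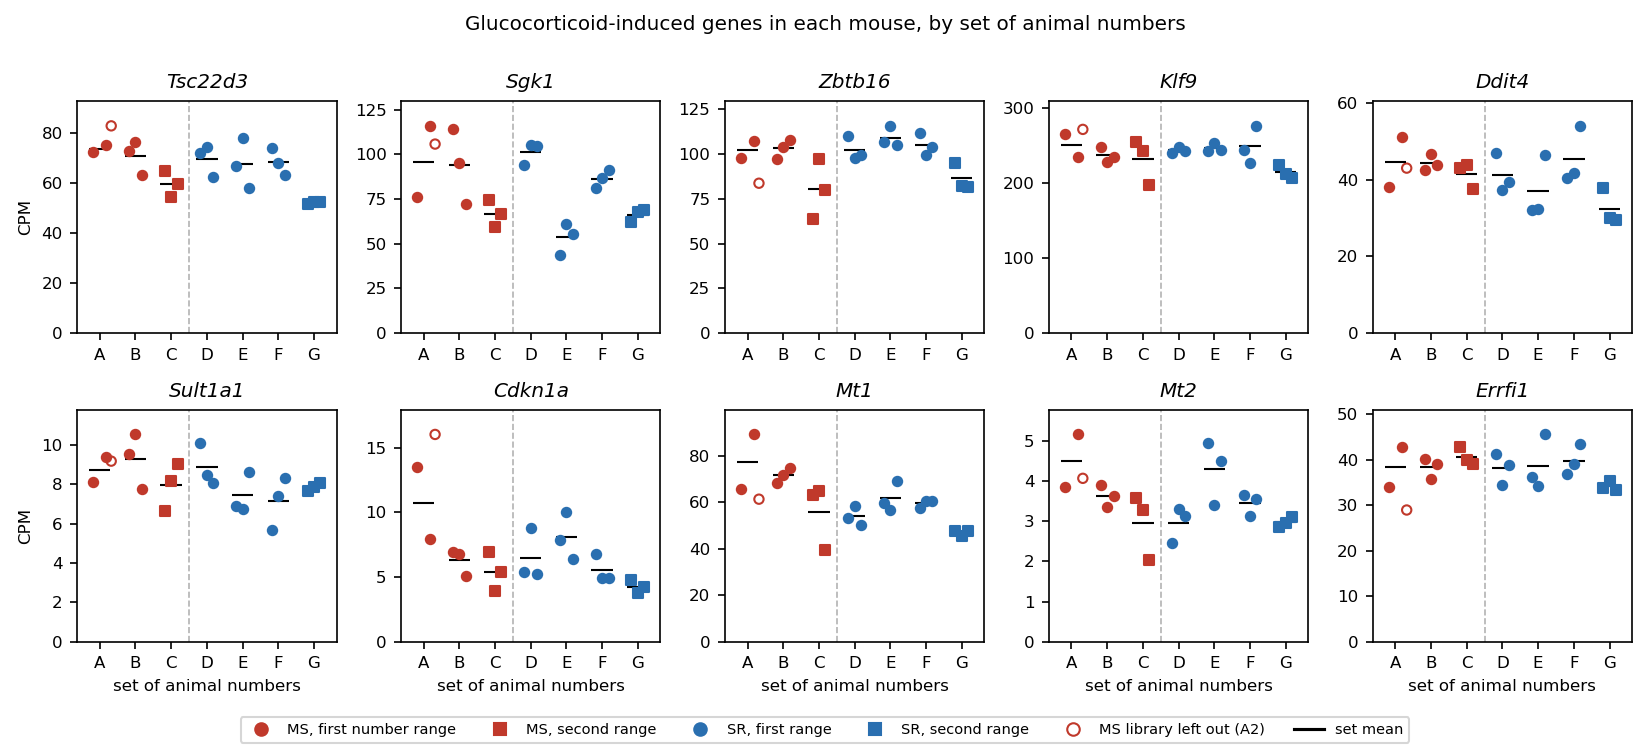
CPM of each member (vertical axes, starting at 0) in each mouse, by set of 3 animal numbers (horizontal axes), with MS in red, SR in blue, squares for the second range of animal numbers, an open circle for the library left out and a line at the mean of each set. MS and SR mice overlap for all 10 members, while the squares of Tsc22d3 and Zbtb16 sit low in both rearing groups.

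Tsc22d3 (ENSMUSG00000031431, GRCm38 X:140539528-140600659, - strand) is a standard readout of receptor activity. Its level was 54.7 CPM in the lowest MS mouse, 68.7 at the median and 76.7 in the highest, against 51.5, 65.3 and 78.2 CPM in SR. The groups covered almost the same range, and the log2 fold change was 0.06 ± 0.08 (SE), with a 95% interval of -0.11 to 0.24 and an edgeR adjusted p of 0.83. Zbtb16 (ENSMUSG00000066687, 9:48654297-48836222, - strand) was the sole member with a value under 0, at -0.09 ± 0.08 (interval -0.27 to 0.08, edgeR adjusted p = 0.72). It ranged from 63.7 through a median of 97.7 to 108 CPM in MS and from 81.8 through 101.9 to 116 CPM in SR. A single MS mouse, C1, set the low end. Klf9 (ENSMUSG00000033863, 19:23141226-23168134, + strand) had means of 237.8 CPM in both groups. Its range was 197 to 265 CPM in MS (median 238) and 206.5 to 276 CPM in SR (median 242), and its log2 fold change was 0.00029 ± 0.05 (interval -0.11 to 0.11, edgeR adjusted p = 0.999), so that a change of more than 1.08-fold in either direction lay outside the interval.

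Sgk1 (ENSMUSG00000019970, 10:21882184-21999903, + strand), whose promoter holds the full response element, spread from 59.2 through a median of 75.3 to 116 CPM in MS and from 43.8 through 75.1 to 105 CPM in SR. Medians were close and both groups spanned about the same range, with a log2 fold change of 0.13 ± 0.17 (interval -0.22 to 0.48, edgeR adjusted p = 0.81). Choroid plexus markers were higher in MS than in SR by a median log2 fold change of 0.91, none of them past the test, and with the score of these markers as a term the Sgk1 value was -0.02. With group means removed, Sgk1 had an r of 0.51 to this score over the mice (permutation adjusted p = 0.17). The part of these markers in the Sgk1 level was not tested. Ddit4 (ENSMUSG00000020108, 10:59949669-59951834, - strand) lay between 37.6 and 51.1 CPM in MS (median 43.4) and between 29.6 and 54.1 CPM in SR (median 38.5), with a log2 fold change of 0.15 ± 0.10 (edgeR adjusted p = 0.58). The MS mice fell inside the wider SR range. Errfi1 (ENSMUSG00000028967, 4:150853919-150868892, + strand) was at 34.0 to 42.8 CPM in MS (median 39.5) and 33.4 to 45.6 CPM in SR (median 36.6), with a log2 fold change of 0.06 ± 0.06 (edgeR adjusted p = 0.76).

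Cdkn1a (ENSMUSG00000023067, 17:29090976-29100727, + strand) was at 3.92 to 13.5 CPM in MS (median 6.86) and 3.73 to 10.0 CPM in SR (median 5.33). Its log2 fold change of 0.22 ± 0.21 had the widest interval of the list, -0.22 to 0.65 (edgeR adjusted p = 0.74). Without set A, whose mice A1 and A3 had 13.5 and 7.91 CPM, it was -0.06. Sult1a1 (ENSMUSG00000030711, 7:126672865-126676432, - strand) was at 6.65 to 10.5 CPM in MS (median 8.60) and 5.69 to 10.1 CPM in SR (median 7.97), with a log2 fold change of 0.14 ± 0.09 (edgeR adjusted p = 0.57). Both groups again overlapped over nearly their whole range.

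Mt1 (ENSMUSG00000031765, 8:94179082-94180327, + strand) had the largest difference of the list. It was at 39.6 CPM in the lowest MS mouse, 67.0 at the median and 89.2 in the highest, against 45.5, 57.1 and 69.1 CPM in SR. In 7 of 8 MS mice, all but C3, the level was above the SR median. The log2 fold change was 0.28 ± 0.10 (interval 0.06 to 0.49, edgeR unadjusted p = 0.016), which did not pass over all genes (edgeR adjusted p = 0.32). An exact permutation test of log2 CPM over the 20 mice gave a two-sided p of 0.0404, unadjusted. Without C3 the log2 fold change was 0.35 (edgeR adjusted p = 0.035), and without set C it was 0.41 (edgeR adjusted p = 0.020), so the call turned on these mice. In those fits 109 and 340 genes were called in all, where 2 were over the 20 mice. Other omissions lowered the value, to 0.20 without A3 (edgeR adjusted p = 0.56), 0.20 without set A (0.64), 0.22 without set B (0.64) and 0.20 without set G (0.53). Within the first range of animal numbers the difference in mean log2 CPM was 0.34, and within the second it was 0.22. Mt2 (ENSMUSG00000031762, 8:94172664-94173568, + strand), its neighbour, was at 2.03 to 5.17 CPM in MS (median 3.62) and 2.45 to 4.96 CPM in SR (median 3.23), with a log2 fold change of 0.07 ± 0.14 (interval -0.21 to 0.36, edgeR adjusted p = 0.89). Mt3, the brain metallothionein and no member, had a log2 fold change of 0.19 ± 0.08 (edgeR adjusted p = 0.37).

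**Figure D2:**
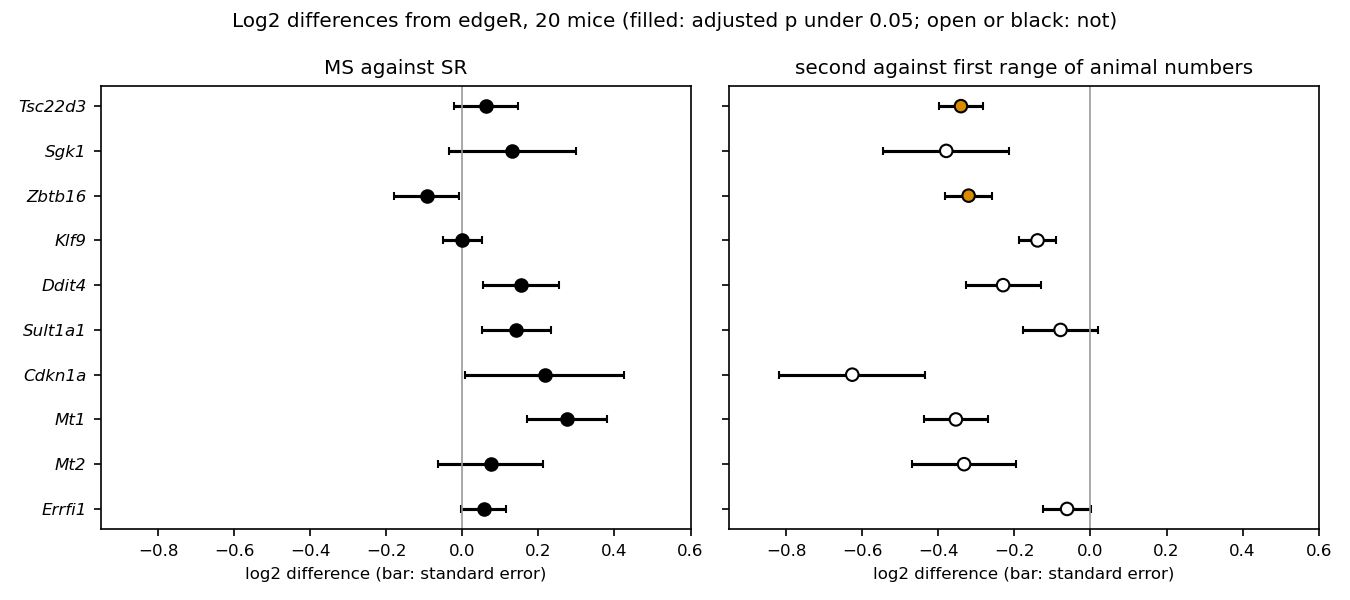
Log2 difference of each member with its standard error (horizontal axes) for MS against SR, left, and for the second against the first range of animal numbers with rearing as a term, right, both from edgeR over 20 mice. On the left 9 of 10 points lie above 0 and none passed the test, and on the right all 10 lie under 0, with Tsc22d3 (-0.34) and Zbtb16 (-0.32) past it (filled).

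The wider pathway gave no call either. Of 25 other glucocorticoid-induced genes, 24 could be tested, as Lcn2 had too few counts, and 0 of 24 passed, with 2 of 24 higher at an unadjusted p under 0.05, where 6.62% of all genes were. These were Plin4, a lipid droplet protein (log2 fold change 0.43 ± 0.19, edgeR adjusted p = 0.38), and Txnip, an inhibitor of thioredoxin (0.22 ± 0.11, edgeR adjusted p = 0.43). In all, 18 of 24 had a value above 0, and their median was 0.08. Of the 12 receptor and cofactor genes, 0 passed, and at an unadjusted p under 0.05, 5 were higher and 1 lower, where 6.62% and 4.92% of all genes were. The 5 encode chaperones and co-chaperones of the receptor complex, Fkbp4, Hspa8 (0.11 ± 0.04), Hsp90aa1 (0.09 ± 0.03), Stip1 (0.09 ± 0.04) and Ptges3 (0.08 ± 0.04), and the lower gene was the corepressor Ncor1 (-0.10 ± 0.03). Nr3c1 was at 83.9 ± 5.98 CPM in MS and 84.9 ± 6.54 in SR, and Nr3c2 at 143 ± 28.4 and 154.5 ± 29.1 CPM. The smallest p among them was that of Fkbp4, which encodes the co-chaperone FKBP52 of the receptor complex, at a log2 fold change of 0.22 ± 0.04 (edgeR adjusted p = 0.11).

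Next, mice of the same rearing group were compared with each other. Between the sets of animal numbers within rearing groups, edgeR called 0 of 10 members, where it called 0.0331% of all genes. At an unadjusted p under 0.05, 6 of 10 members differed between sets, where 9.09% of all genes did. Without the filter on low counts, 6 of 10 members were called, but so were 5.1% of all genes. Sgk1 had the smallest p (edgeR adjusted p = 0.17). Its SR mice fell into separate steps, with 43.8 to 61.3 CPM in set E, 62.2 to 68.9 in set G, 81.3 to 91.2 in set F and 93.9 to 105 in set D. The MS sets A and B were broader, at 72.3 to 114 CPM in set B and 75.9 and 116 CPM in the mice of set A. Set C, also MS, was at 59.2 to 74.7 CPM. Tsc22d3 came next (edgeR adjusted p = 0.28), and its lowest set means were those of sets G, 52.2 CPM, and C, 59.7 CPM, where the other sets had 67.8 to 73.9 CPM.

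Sets C and G are the sets of the second range of animal numbers, 1 per rearing group. After these values had been seen, the second range (6 mice) was compared with the first (14 mice) in edgeR, with rearing as a term. All 10 members had a lower fitted level in the second range, where 50.5% of all genes did. At an unadjusted p under 0.05, 8 of 10 were lower, where 7.76% of all genes were. Tsc22d3 and Zbtb16 passed over all genes, 2 of 10, where 0.281% of all genes passed in either direction and 0.176% were called lower. The median log2 difference of the members was -0.33, and that of all genes was -0.0016.

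Tsc22d3 was at 64.8, 54.7 and 59.6 CPM in mice C1 to C3 and at 51.5, 52.4 and 52.6 CPM in mice G1 to G3. In the first range it was at 58.0 to 78.2 CPM with a median of 72.3, so that C1 and C3 overlapped the low end. The log2 difference was -0.34 ± 0.06 (edgeR adjusted p = 0.0083). Zbtb16 was at 63.7, 97.4 and 79.9 CPM in C1 to C3 and at 95.1, 82.3 and 81.8 CPM in G1 to G3, and in the first range at 97.5 to 116 CPM with a median of 105. All 6 mice of the second range lay under all 14 of the first, C2 by a hair, and Zbtb16 was the only member for which this held (0.0772% of all genes). Its log2 difference was -0.32 ± 0.06 (edgeR adjusted p = 0.019). Both calls depended on counting mice as replicates. With counts summed within each set, so that 7 sums were compared, the differences were -0.35 and -0.33 and neither passed (edgeR adjusted p = 0.086 for both). In SR mice alone the differences were -0.40 and -0.29 (edgeR adjusted p = 0.13 for both), and in MS mice alone they were -0.28 and -0.36 (edgeR adjusted p = 0.14 and 0.15). Zbtb16 was also lost with all 21 libraries (edgeR adjusted p = 0.058), without C3 (0.058), without G2 (0.052) and without G3 (0.083). A range, a set, a litter and a cage cannot be told apart here, as each rearing group has 1 set in the second range.

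The other members did not pass the test. Cdkn1a had the largest log2 difference, -0.63 ± 0.19 (edgeR adjusted p = 0.16), with 3.73 to 6.92 CPM in the second range (median 4.47) and 4.90 to 13.5 CPM in the first (median 6.79). Mt1 was at -0.35 ± 0.08 (edgeR adjusted p = 0.076), with medians of 47.7 and 60.5 CPM. Sgk1 was at -0.38 ± 0.17 (0.29), Mt2 at -0.33 ± 0.14 (0.26), Ddit4 at -0.23 ± 0.10 (0.29 likewise) and Klf9 at -0.14 ± 0.05 (0.21), each with the edgeR adjusted p in brackets. Sult1a1 (-0.08 ± 0.10) and Errfi1 (-0.06 ± 0.06) had differences within or near their standard errors. Sult1a1 was 0.01 in SR mice alone and Errfi1 0.08 in MS mice alone, so these 2 did not keep their sign. The effect of MS did not pass as different between the ranges for any member by edgeR's interaction test, which called 0% of all genes, and at an unadjusted p under 0.05 it did for 1 of 10, Errfi1 (edgeR adjusted p = 0.54), where 8.67% of all genes did.

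Other gene groups also differed between the ranges. Of all genes, 50.5% were lower in the second range, 7.76% at an unadjusted p under 0.05, and 0.176% were called lower. Of the 24 other glucocorticoid-induced genes, 16 were lower, 11 at an unadjusted p under 0.05, and 3 were called: Map3k6, a stress kinase (-0.80 ± 0.12, edgeR adjusted p = 0.0024), the clock gene Per1 (-0.40 ± 0.07, 0.017) and the transcription factor Klf15 (-0.29 ± 0.06, 0.024). The other 8 were higher with 0 called, 2 of them at an unadjusted p under 0.05, Rasd1 (0.32 ± 0.14) and Bcl6 (0.20 ± 0.08). Fkbp5 was at 0.03 ± 0.07. Of 11 immediate early genes, which follow neuronal activity, 11 were lower and 10 of these at an unadjusted p under 0.05, with Junb called (-0.47 ± 0.09, edgeR adjusted p = 0.030). Of 14 clock genes, 12 were lower and 3 called: Nr1d1 (-0.30 ± 0.05, edgeR adjusted p = 0.0081), Ciart (-0.42 ± 0.08, 0.020) and Per1. Of the dentate granule cell markers 6 of 6 were higher, by a median of 0.32, and of the striatal markers 6 of 6 were lower, by a median of -0.91, with 0 called in either list. The striatal markers were high in a few mice of the first range, with a mean log2 CPM of 6.09 in B1, 5.39 in E2 and 3.96 in E1. The other mice of the first range were at 2.88 to 3.48, and those of the second at 2.82 to 3.18. The microglia markers were also higher, 6 of 6 by a median of 0.14 and 4 at an unadjusted p under 0.05, led by Tmem119 (0.26 ± 0.06, edgeR adjusted p = 0.077) and Cx3cr1 (0.24 ± 0.05, 0.070). At that unadjusted p, 2732 of all 18146 genes passed in either direction. With counts summed within each set, edgeR called 0 of 21752 genes (2395 at an unadjusted p under 0.05), so none of these genes passed there either. The part of these gene groups in the lower levels of the members was not tested.

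**Figure D3:**
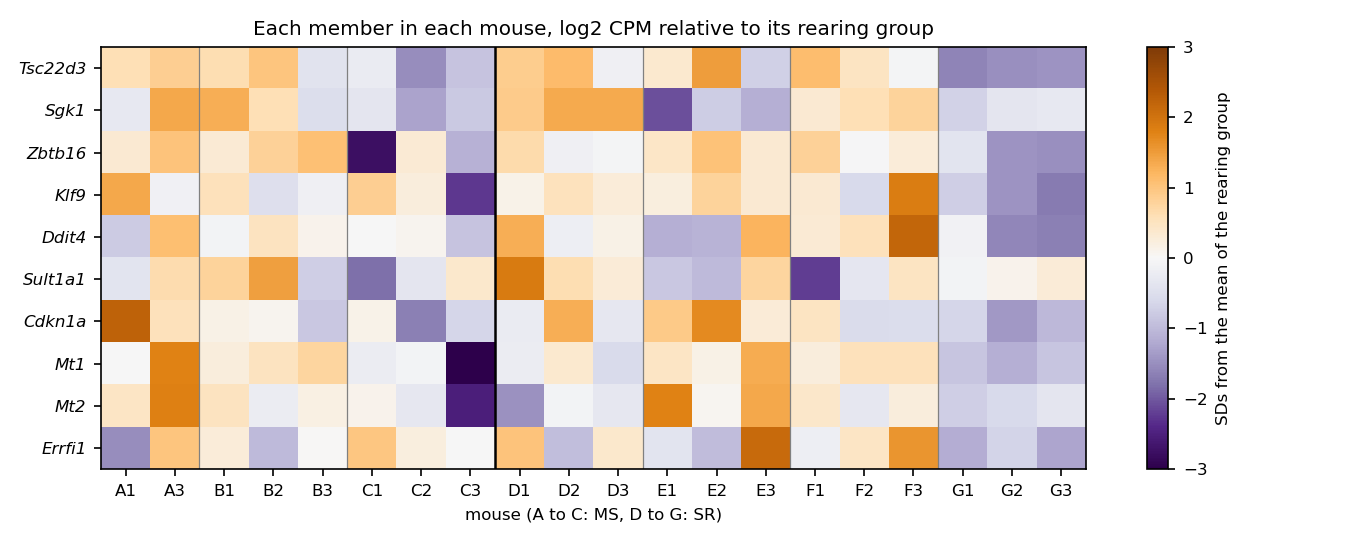
Log2 CPM of each member (rows) in each of 20 mice (columns) as SDs from the mean of its rearing group, with orange above and purple below, a black line between MS and SR and grey lines between sets. Mice C3 and G1 to G3 are purple for most members, with means over the members of -1.17, -0.70, -0.996 and -0.98.

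The levels were then followed across individual mice. With the mean of each rearing group removed, the mean over the members, in SDs, was highest in MS mouse A3 (0.99, with 9 of 10 members above the group mean) and in SR mouse F3 (0.74, with 8 of 10). It was lowest in C3 (-1.17, with 1 of 10) and G2 (-0.996, with 1 of 10), and in G1 no member was above its group mean. Of the 45 pairs of members, 38 had a positive Pearson's r over the 20 mice. The median r was 0.32, where that over all pairs of genes tested was -0.0022, and 20% of the member pairs had an r of at least 0.5, where 4.71% of all pairs did. Mt1 (median r of 0.48 to the other members), Tsc22d3 (0.48) and Klf9 (0.47) ran most closely with the list, and Sult1a1 (0.01) ran least with it. The median r was 0.36 within SR and 0.38 within MS.

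The median was lower once the ranges of animal numbers were separated. With the group means removed within each range, the median r was -0.01. Over the 14 mice of the first range alone it was -0.0069, over the 6 mice of the second it was 0.13, and with the mean of each set removed it was 0.07.

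**Figure D4:**
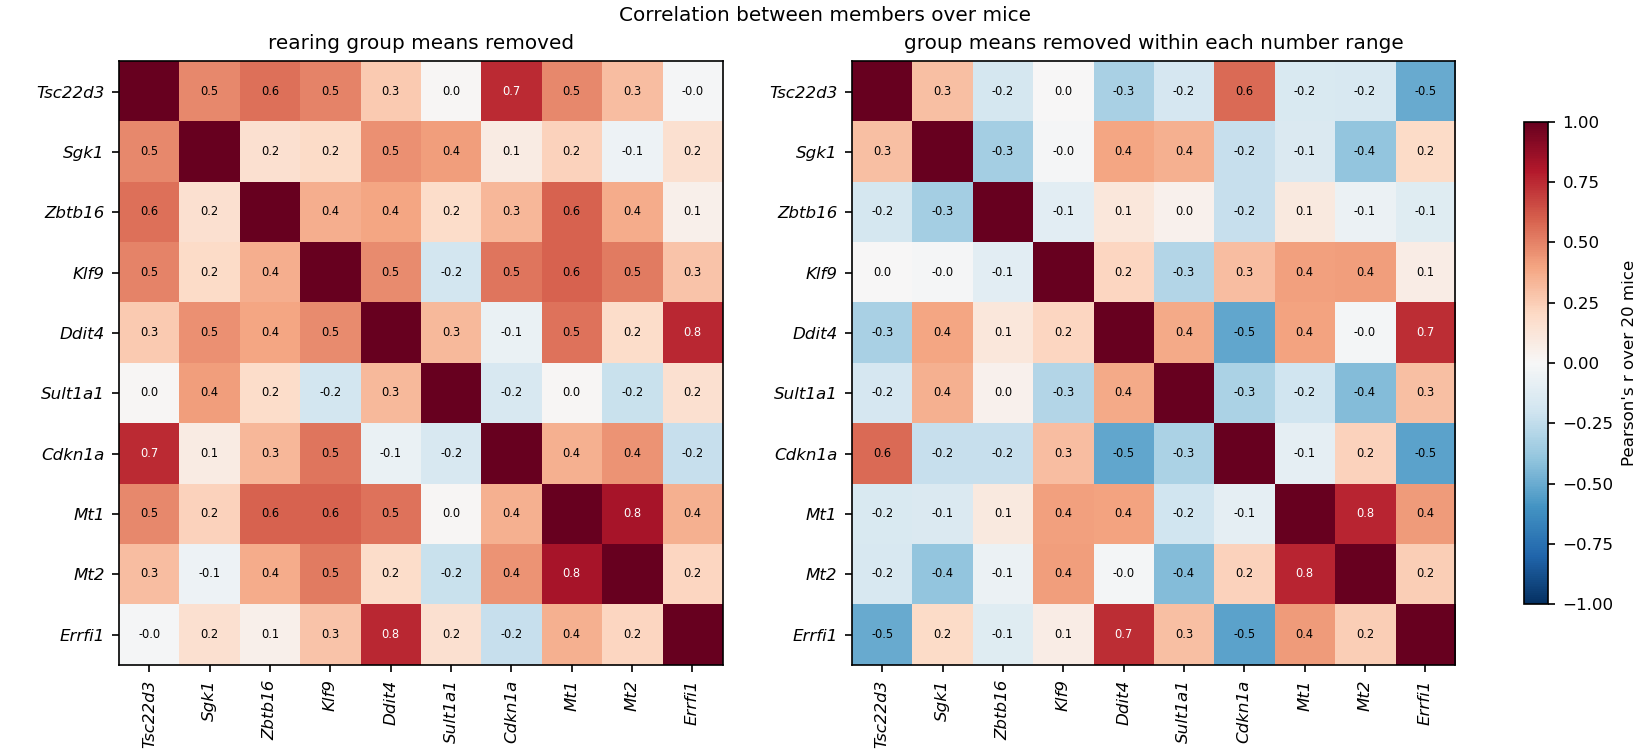
Pearson's r between log2 CPM of each pair of members over 20 mice (colour scale from -1 to 1), with the means of the rearing groups removed, left, and with the group means removed within each range of animal numbers, right. Most squares are red on the left (38 of 45 pairs above 0). On the right the highest are Mt1 with Mt2 (0.76), Ddit4 with Errfi1 (0.74) and Tsc22d3 with Cdkn1a (0.56). Other pairs there are also above 0, such as Mt1 with Errfi1 (0.43) and Klf9 with Mt2 (0.42), and others are under 0.

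Of the 45 pairs, 4 passed the permutation test (100000 draws within rearing groups, two-sided) after adjustment over the 45 pairs, and all of these were positive. Mt1 and Mt2, neighbours on chromosome 8 whose promoters hold the metal cores shown above, had the highest r, 0.83 (permutation p = 0.00013, adjusted p = 0.0044), and a Spearman's rho of 0.71 (permutation p = 0.00065, adjusted p = 0.0098). Mouse C3 was lowest for both genes, at 39.6 and 2.03 CPM, and A3 highest for both, at 89.2 and 5.17 CPM. Without C3 and A3, the mice farthest from the median of Mt1, r was 0.61, within sets it was 0.76, and within the first and the second range it was 0.66 and 0.97. Both genes were also set against the exon length trend of each library, the r of log2 CPM with log2 exon length over genes. Over the 20 mice their r to it were -0.38 and -0.34 (permutation adjusted p = 0.57 for both). Within sets these were -0.81 and -0.65, and without C1 and C2 they were -0.65 and -0.54. The part of this trend in the pair was not tested.

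Ddit4 and Errfi1, both inhibitors of growth signalling, had an r of 0.75 (permutation p = 0.00029, adjusted p = 0.0044) and a rho of 0.75 (permutation p = 0.00055, adjusted p = 0.0098). The value was 0.84 in SR and 0.45 in MS, 0.78 within sets, 0.81 within the first range but 0.14 within the 6 mice of the second, and 0.72 without G3 and G2. SR mice F3 (54.1 and 43.4 CPM) and E3 (46.4 and 45.6 CPM) were among the highest for both genes, and G3 was lowest for both (29.6 and 33.4 CPM). Tsc22d3 and Cdkn1a had an r of 0.74 (permutation p = 0.00024, adjusted p = 0.0044) and a rho of 0.77 (permutation p = 0.00022, adjusted p = 0.0098). The value was 0.77 in SR, 0.73 in MS, 0.70 within sets, 0.52 within the first range, 0.87 within the second and 0.71 without G1 and G2. Ddit4 and Mt1 had an r of 0.54 (permutation p = 0.0029, adjusted p = 0.032) and a rho of 0.60 (permutation p = 0.0062, adjusted p = 0.035), with 0.54 within sets, 0.39 within the first range, 0.56 within the second and 0.44 without G3 and G2. With the group means removed within each range, Cdkn1a and Errfi1 (-0.54), Ddit4 and Cdkn1a (-0.52) and Tsc22d3 and Errfi1 (-0.51) ran in opposite directions, given here as values with no test.

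**Figure D5:**
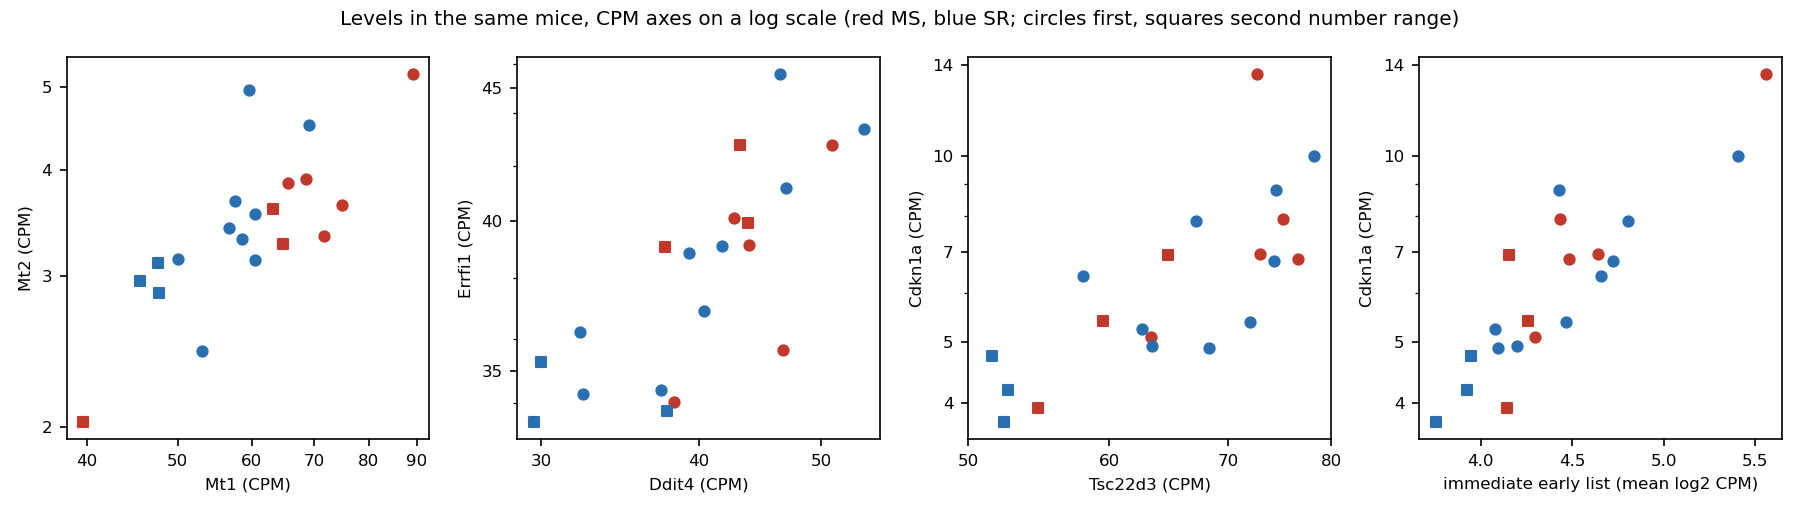
Levels of Mt1 and Mt2, Ddit4 and Errfi1, Tsc22d3 and Cdkn1a, and Cdkn1a against the mean log2 CPM of 11 immediate early genes, in the same 20 mice (CPM on log axes, MS red, SR blue, circles for the first and squares for the second range). Points rise together in each panel, with r of 0.83, 0.75, 0.74 and 0.88 after the group means were removed.

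The members were also set against the mean log2 CPM of other gene lists and the exon length trend in the same mice, which gave 120 relations. After adjustment over these, 7 passed for both Pearson's r and Spearman's rho, and all 7 involved Cdkn1a, Tsc22d3 or Zbtb16. Cdkn1a followed the immediate early genes most closely, with an r of 0.88 (permutation p = 1e-05, the smallest that the draws can give, adjusted p = 0.0012) and a rho of 0.86 (permutation p = 2e-05, adjusted p = 0.0024). Without A1 and E2 it was 0.77, and within sets it was 0.74. Mice A1 and E2, with 13.5 and 10.0 CPM of Cdkn1a, had the highest values of the immediate early list, 5.56 and 5.40. Tsc22d3 had an r of 0.67 to the same list (permutation p = 0.0015, adjusted p = 0.026, rho 0.73 with permutation p = 0.00066 and adjusted p = 0.016), with 0.52 within sets and 0.69 without A1 and E2.

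Per1 of the clock list and Dusp1 of the immediate early list are also among the other glucocorticoid-induced genes. The 14 clock genes, whose plain mean is no measure of the time of day, ran with the same members. Cdkn1a had an r of 0.80 to their mean (permutation p = 6e-05, adjusted p = 0.0036, rho 0.77 with permutation p = 0.00018 and adjusted p = 0.0072), Tsc22d3 one of 0.68 (permutation p = 0.0014, adjusted p = 0.026, rho 0.72 with permutation p = 0.00086 and adjusted p = 0.017) and Zbtb16 one of 0.64 (permutation p = 0.0018, adjusted p = 0.027, rho 0.73 with permutation p = 0.00041 and adjusted p = 0.012). Within sets these were 0.61, 0.55 and 0.32, and without E2 and A1 they were 0.66, 0.64 and 0.69. Against the dentate granule cell markers, Cdkn1a had an r of -0.73 (permutation p = 0.00034, adjusted p = 0.010, rho -0.67 with permutation p = 0.0021 and adjusted p = 0.031) and Tsc22d3 one of -0.73 (permutation p = 0.00036, adjusted p = 0.010, rho -0.79 with permutation p = 8e-05 and adjusted p = 0.0048), which were -0.68 and -0.75 within sets and -0.56 and -0.69 without E2 and A1. These markers spanned 4.75 to 5.89 mean log2 CPM over the SR mice and 4.78 to 5.76 over the MS mice. Ddit4 and Errfi1 went the other way against these markers, with r of 0.38 and 0.54 (permutation adjusted p = 0.41 and 0.16). Within sets these were 0.80 and 0.78, and without E2 and A1 they were 0.24 and 0.40. Against the CA pyramidal neuron markers their r were 0.50 and 0.59 (permutation adjusted p = 0.16 and 0.094), or 0.73 and 0.81 within sets. There Cdkn1a and Tsc22d3 were at -0.73 and -0.51. The part of these markers in the levels of these members, or in their pairs, was not tested.

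To name the genes whose pattern was most like that of the list, each tested gene was correlated with the mean over the members across the 20 mice, given as a description with no p. The highest r were those of Tob2 (0.83), Fzd2 (0.82), Map3k6 (0.82), Klhl21 (0.81) and Rin2 (0.80). For single members, Tsc22d3 was most like Klf15 (0.90), Map3k6 (0.86) and Insig1 (0.83), of which Klf15 and Map3k6 are themselves glucocorticoid-induced. Sgk1 was most like an unnamed gene, ENSMUSG00000095041 (0.81), Nfkbia (0.80) and Plekhf1 (0.79), and Nfkbia, an inhibitor of NF-kappaB, is also a glucocorticoid-induced gene. Zbtb16 was most like Hinfp (0.89), Bach2 (0.87) and Mir6982 (0.86). Klf9 was most like C130050O18Rik (0.86), Nupr1 (0.85) and Ier5l (0.84).

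Ddit4 was most like Wnt11 (0.83), Cebpa (0.82) and Rara (0.80), and Errfi1 most like Bcar1 (0.90), Cdc42ep4 (0.87) and Arrdc4 (0.87). Cdkn1a was most like the immediate early gene Ier2 (0.91), Rassf3 (0.90) and Cadm4 (0.90). Mt1 was most like Rpl31, a ribosomal protein gene (0.91), and Ndufa6 (0.88) and Cox7c (0.86), which encode subunits of the respiratory chain. Mt2 was most like Psmg4 (0.84), Atp5j2 (0.82) and Mrpl4 (0.80). Sult1a1 had no gene above 0.73, with Mapk1ip1l (0.73), Slc26a2 (0.73) and Osgin2 (0.71) the highest. All of these r are over the same 20 libraries and include sets C and G.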

How the data were processed

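Poly-A RNA from mouse hippocampus was sequenced with 1 library per mouse (9 MS, 12 SR), grouped by the rearing condition in the labels. The authors prepared directional libraries, sequenced them on a NovaSeq6000, aligned the reads to GRCm38 with STAR 2.7.3a (per the submitters' processing notes) and used featureCounts to assign them to Ensembl genes. The authors deposited raw counts per gene, not normalised and not filtered. Libraries held 17276810 to 30449055 counts each, and the column names give 1 flow cell and 1 lane throughout. Columns that belong to no sample numbered 0.

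The members and all gene lists were chosen with earlier results of these data known. The study removed 1 outlier without naming it, and here the library left out (A2) was that with the widest gap to its neighbour at either end of the first principal component, taken over the 500 genes with the highest variance after variance stabilisation. Of the 55487 gene ids, 55141 matched a symbol of GENCODE M21. Counts were filtered by filterByExpr (minimum count 10), normalised by TMM and fitted with the robust quasi-likelihood test of edgeR 4.0.16 (R 4.3.3). P-values were adjusted over all genes tested (Benjamini-Hochberg) with a threshold of 0.05. The spread between mice of a group (biological coefficient of variation) was 13.3%. Standard errors were derived from the log2 fold change and the F statistic of edgeR. Log2 CPM used a prior count of 2, and correlations used log2 CPM with the mean of each rearing group removed and 100000 permutations within groups (Python 3.11.15, numpy 2.4.6, scipy 1.17.1). Positions and exon lengths are those of GENCODE M21 and promoters those of RefSeq, both on GRCm38. The 2 most alike libraries of a group had a chi-square per degree of freedom of 3.58, where 1 is sampling noise, so no library was counted as deposited in 2 copies.

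On counts simulated from these libraries for 17952 genes in the comparison of MS with SR, edgeR called 24 of 50 genes changed 1.3-fold and 30 of 50 changed 1.5-fold. It called 46 of 50 changed 2-fold, 48 of 50 changed 3-fold and 6 unchanged genes. The 1.3-fold and 2-fold changes were all increases, and the 1.5-fold and 3-fold changes all decreases. Mice were simulated as independent, with no sets or ranges, so these shares need not hold for the real mice. Alternatives were all 21 libraries, DESeq2 1.42.0, no filter on low counts, other scalings, the number range or a choroid plexus score as a term, counts summed per set, limma-voom (limma 3.58.1) with the set as a random block, an exact permutation test, and each library and each set left out. The comparison of the ranges of animal numbers with its alternatives, the exon length trend as a term, the correlations within ranges and the relations to other gene lists were chosen after seeing the data. Named genes are the 10 members, from each other list the genes called or otherwise at most the 4 of smallest p, the 5 genes most like the mean of the members and the 3 most like each member. Fkbp5, Nr3c1, Nr3c2, Mt3, Stip1, Ptges3, Hsp90aa1, Tmem119, Cx3cr1, Rasd1, Bcl6, Dusp1 and the markers of A2 were named in addition, after their values were seen.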

Additional observations from a re-analysis of the deposited data

Results flagged for a closer look

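Mt1 in MS mouse C3, at 39.6 CPM, lay apart from the other 7 MS mice on the log2 CPM scale. There the gap to its nearest neighbour was 0.576 of the whole range of the group, past Dixon's critical value for 8 samples at 95%. The mark depended on this scale. In CPM the nearest neighbour, C1, was at 63.3 and the highest mouse, A3, at 89.2, and that gap was under the critical value. On log2 CPM, Mt1 was the only one of 10 members so marked in MS, and chance alone marks about 1 in 20. SR has more than 10 mice and was not examined in this way. C3 also had the lowest Mt2 and Klf9 of the MS mice.

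The MS library left out, A2, had more of 3 members than any SR mouse. Tsc22d3 was at 83.0 CPM, Sgk1 at 106 CPM and Cdkn1a at 16.0 CPM, where the highest SR mice had 78.2, 105 and 10.0 CPM. This library had near 0 of several dentate granule cell markers and high levels of striatal markers, and the part of these in its member levels was not tested.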

How the results depend on the processing

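The count of members called for MS against SR was 0 to 1 when each library was left out, and 1 without set C. The median log2 fold change of the members stayed between 0.04 and 0.20 over 37 alternatives. Mt1 was the member called, and its log2 fold change was 0.20 to 0.41 over all alternatives (adjusted p from 0.020 to 0.64). Some values changed sign, in each case without passing the test: Tsc22d3 was -0.031 without set G, Sgk1 was -0.018 with the choroid plexus score as a term and -0.0074 without set E, Zbtb16 was 0.030 without set C, Cdkn1a, at 0.22 over the 20 mice, was -0.060 without set A, and Mt2 was -0.054 without set A. Klf9 was -0.00034 with DESeq2, -0.0084 with no filter on low counts, -0.00059 with DESeq2's size factors and -0.00060 in the difference of mean log2 CPM, -0.017 with the exon length trend as a term, -0.026 without set A and -0.051 without set G. With single libraries left out, Klf9 was between -0.028 and 0.033 and Mt2 between -0.020 and 0.16. DESeq2 called 134 genes in all for MS against SR and edgeR 2, and edgeR called 109 without MS mouse C2 or C3 and 340 without set C.

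Between sets, 6 members were called with no filter on low counts (1992 genes of 39023 in all, smallest adjusted p of a member 3.39e-34 by edgeR), and the cause was not tested. For the second against the first range, 2 members were called, 1 with all 21 libraries, 0 with counts summed within each set, 0 in SR mice alone, 0 in MS mice alone and 1 to 2 when each library was left out. Sult1a1 was 0.011 in SR mice alone and Errfi1 0.078 in MS mice alone. The median r between members was 0.32, it was -0.013 with the range means removed, -0.0069 in the first range alone and 0.069 with set means removed, and 0.27 to 0.36 when each library was left out. No paired analysis was possible because the labels give no replicate numbers, and those used here follow the order of the samples.

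Depth limits Mt2 and Cdkn1a most, with 37 and 85 counts in their lowest libraries. The counting error is largest for these members.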
